A study of Homo sapiens with 6 samples.

Results

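The brush border is the carpet of microvilli on the apical face of enterocytes, the absorptive cells that line the gut. This set joins 7 genes for microvillus proteins (VIL1, EZR, ESPN, EPS8, MYO1A, USH1C and MYO7B) with 3 genes for enzymes anchored in that membrane (ANPEP, DPP4 and SI). Members were taken by gene name from a list, and all 10 were found among the 58735 genes of the deposited table. RNA sequencing had been run on 6 libraries labelled SW480, a human colorectal adenocarcinoma line grown in L-15 medium with serum. Of these, 3 carry the genotype label DDX39B overexpression and 3 the label WT, with Con in their titles, read here as control. All 6 are labelled with the same cell line and culture medium. The labels used here do not say how DDX39B was introduced, whether clones were picked, or whether the libraries came from separate cultures, so p-values measure the spread between these libraries, which may be technical.

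DDX39B, an RNA helicase of the mRNA export machinery, is the gene the labels name, and its level went against them. It measured 15.02, 13.87 and 14.03 FPKM in overexpression-labelled libraries, against 39.3, 34.6 and 41.9 FPKM in control-labelled libraries (FPKM is a read count scaled by gene length and library size). The groups are therefore named by their labels, overexpression-labelled (OE) and control-labelled (CT), and every direction below rests on the labels as given. Whether both groups are the same line was not tested, and a difference between lines and the labelled genotype cannot be told apart here. Libraries held 16963075 to 17463697 reads, worked out from the FPKM. The difference between groups was wide, as 76.8% of 13972 tested genes passed an adjusted p of 0.05. The labelled tissue was also checked. For comparison with the counts that follow, 52.7% of all genes with at least 1 read had groups that did not overlap. Of 12 colon epithelial markers, 9 had separated groups, 8 of them higher and 1, KRT20, lower (6 OE and 80 CT reads), and the list summed to 1956 to 1978 FPKM in overexpression-labelled and 357 to 430 FPKM in control-labelled libraries. KRT8, KRT18, KRT19 and EPCAM made up most of the OE sum (means of 680.9, 609.5, 500.2 and 171.2 FPKM). KRT8 and KRT18 made up most of the CT sum (179.1 and 201.6 FPKM). Few reads came from GPA33 (18 OE and 0 CT), LGALS4 (22 OE and 4 CT), CEACAM5 (1 OE and 5 CT) and CDH17 (35 OE and 14 CT, groups overlapping). CDX2, the homeobox factor of the gut, had 1059 OE and 0 CT reads, while the related CDX1 had 0 reads in all 6 libraries. Markers of other cell types went both ways. Of 10 leukocyte markers (sum 1.58 to 2.33 FPKM in OE and 0.740 to 1.23 FPKM in CT libraries), 4 were higher and 1 lower without overlap. LYZ had 48 OE and 0 CT reads and NKG7 30 OE and 0 CT reads, whereas PTPRC had 0 OE and 5 CT reads and CD3D and MS4A1 had none. Of 9 fibroblast markers (sum 1.54 to 1.67 FPKM in OE and 4.42 to 8.30 FPKM in CT libraries), 1 was higher and 6 lower without overlap, with PDGFRA at 0 reads throughout and COL3A1, DCN, FAP and THY1 at 0 reads in OE libraries. Of 7 endothelial markers (sum 1.06 to 1.48 FPKM in OE and 36.2 to 50.7 FPKM in CT libraries), 1 was higher and 4 lower. ESAM made up most of the CT sum, at 0.678 FPKM in OE and 43.5 FPKM in CT libraries, VWF was the higher one at 326 OE and 24 CT reads, and KDR had none. Of 8 kidney proximal tubule markers (sum 0.691 to 0.940 FPKM in OE and 1.24 to 1.89 FPKM in CT libraries), AQP1 was lower without overlap (21 OE and 238 CT reads), and LRP2 (377 OE and 1 CT reads) and CUBN (29 OE and 2 CT reads) were higher. The part of these differences in the brush border values was not tested.

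In a microvillus, actin filaments are bundled by villin, espin and plastin, capped at the tip by EPS8, and tied to the membrane by ezrin and by the motor myosin IA. Protocadherins at the tips join neighbouring microvilli, and the scaffold harmonin and the motor myosin VIIB hold these links from inside. The membrane carries peptidases and disaccharidases that finish digestion at the cell surface. Villin and ezrin are widespread in colon epithelium, whereas sucrase-isomaltase belongs mainly to the small intestine.

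The 10 genes did not move as a block. VIL1 and EZR were higher under the overexpression label, ANPEP, USH1C, ESPN and EPS8 were lower, MYO1A and DPP4 stood at low levels with groups that did not overlap, MYO7B was low in both groups, and SI had no reads. Testing was done with limma, a linear model fitted to all genes, on log2(FPKM + 1) for those genes whose FPKM averaged 1 or more across libraries, and 6 of the 10 members met that minimum. Of these 6, 2 were higher and 4 lower, where 37.5% of all tested genes were higher and 39.3% lower. VIL1 and ANPEP met the minimum through a single group each, so that they were bound to differ and the count is a description. The median log2 fold change was -0.70 over the 6 members and -0.03 over all tested genes. OE and CT libraries were fully separated for 8 of the 10 genes, 3 higher and 5 lower, the untested MYO1A and DPP4 among them, and for 52.7% of all genes with at least 1 read. All 6 tested members were separated, against 80.1% of tested genes (39.2% of tested genes higher, 40.9% lower). MYO1A, MYO7B, DPP4 and SI were below the minimum and are given by their reads.

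**Figure D1:**
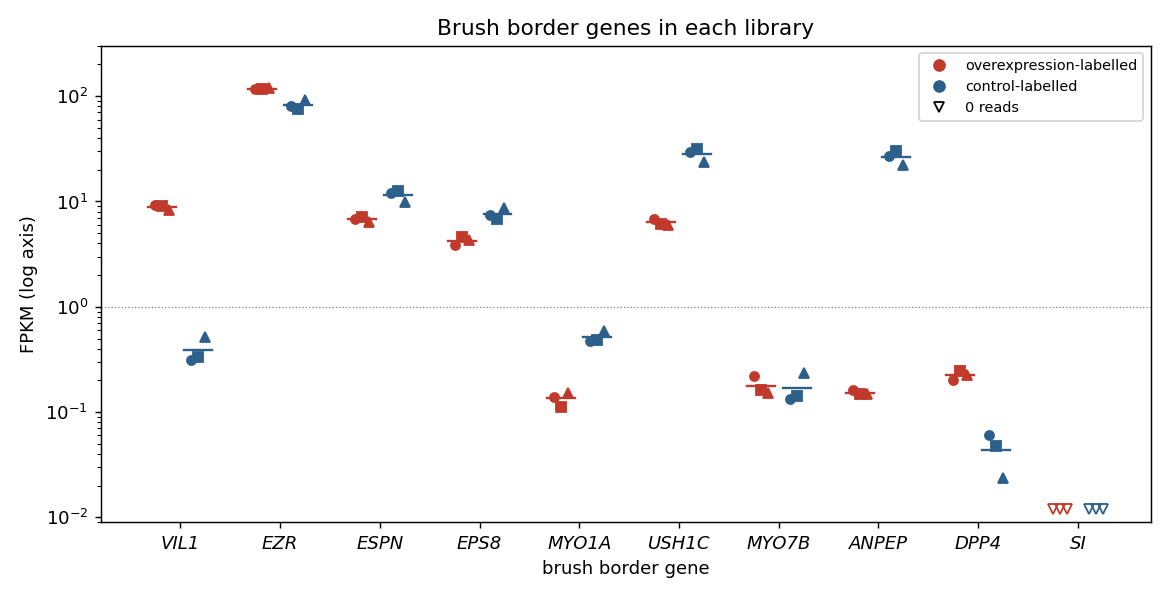
FPKM of the 10 brush border genes (log axis) in each library, overexpression-labelled in red on the left of each pair and control-labelled in blue on the right, with a circle, square and triangle for replicates 1, 2 and 3 and a bar at the group mean. VIL1 and ANPEP lie far apart in opposite directions (means of 8.88 FPKM in OE and 0.388 FPKM in CT for VIL1, 0.153 FPKM in OE and 26.7 FPKM in CT for ANPEP), the MYO7B groups overlap, and SI is at 0 reads in every library.

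VIL1 encodes villin, which bundles actin filaments in the microvillus core and severs them when calcium rises. VIL1 (ENSG00000127831, chr2:218419092-218453295, plus strand, GRCh38) measured 9.24, 9.04 and 8.35 FPKM in overexpression-labelled libraries, against 0.310, 0.334 and 0.518 FPKM in control-labelled libraries. All 3 overexpression-labelled libraries were at least an order of magnitude above every control-labelled one, and CT replicate 3 was the highest control. Mean levels were 8.88 ± 0.47 FPKM in OE and 0.388 ± 0.11 FPKM in CT libraries (SD, n = 3 each), 22.9-fold higher, from 3290 OE and 134 CT reads. On the log2(FPKM + 1) scale, which understates changes of low values, limma gave 2.83 with an SE of 0.084 (adjusted p = 3.47e-07). By size, 4.69% of tested genes changed by as much. VIL1 met the minimum through the overexpression-labelled group alone, so that it was bound to differ and these values are a description. In bulk RNA, a smaller number of expressing cells and less RNA per cell cannot be told apart. The gene overlaps USP37 on the opposite strand, which had 1202 OE and 1039 CT reads and did not pass the test.

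Espin and EPS8, other proteins of the actin core, went the other way. ESPN (ENSG00000187017, chr1:6424776-6461367, plus strand), which bundles filaments and lengthens microvilli, measured 6.78, 7.06 and 6.39 FPKM in overexpression-labelled libraries, against 12.05, 12.53 and 9.81 FPKM in control-labelled libraries. Its groups did not overlap, and it was 1.70-fold lower under the overexpression label (limma, log2 change -0.68 with SE 0.096, adjusted p = 5.89e-04). Reads of ESPN are uncertain in part. TNFRSF25 overlaps it on the opposite strand (657 OE and 328 CT reads, called higher), as does the antisense gene AL031848.1 (12 OE and 106 CT reads, called lower), and the pseudogene ESPNP had 221 OE and 5 CT reads. EPS8 (ENSG00000151491, chr12:15620158-15882329, minus strand), which caps the fast-growing ends of filaments, measured 3.889, 4.598 and 4.283 FPKM in overexpression-labelled libraries, against 7.48, 6.82 and 8.67 FPKM in control-labelled libraries. It was 1.80-fold lower, with groups that did not overlap (limma, log2 change -0.72 with SE 0.097, adjusted p = 4.70e-04). Changes of the size of ESPN and EPS8 were common here, as 46.4% and 44.4% of tested genes differed by as much.

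EZR encodes ezrin, which links actin to membrane proteins once it is phosphorylated and unfolded. It was the most abundant member per length in both groups, above 98.2% of tested genes in overexpression-labelled and 96.9% in control-labelled libraries. EZR (ENSG00000092820, chr6:158765741-158819412, minus strand) measured 117, 117 and 120.1 FPKM in overexpression-labelled libraries, against 81.4, 74.9 and 91.6 FPKM in control-labelled libraries. The control-labelled values were the more scattered, at a coefficient of variation of 1.61% in OE and 10.2% in CT libraries, and the groups did not overlap. The 1.43-fold difference (limma, log2 change 0.51 with SE 0.077, adjusted p = 8.12e-04) was smaller than that of 57.5% of tested genes in size. EZR-AS1, which overlaps it on the opposite strand, had 5 OE and 3 CT reads. The 250 bases before its start site show the type of promoter at the most abundant member. They are printed 5′ to 3′ on the strand of the gene from RefSeq (GRCh38.p14, chr6:158818236-158818485).
EZR: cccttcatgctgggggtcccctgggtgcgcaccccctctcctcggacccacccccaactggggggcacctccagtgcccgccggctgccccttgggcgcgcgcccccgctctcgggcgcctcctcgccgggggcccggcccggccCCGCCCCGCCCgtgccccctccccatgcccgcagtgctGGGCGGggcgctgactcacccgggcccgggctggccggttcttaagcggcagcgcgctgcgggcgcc
Capitals mark GGGCGG, the GC box, or its reverse complement CCGCCC, which occurred 3 times here, 2 of them sharing a base. The window was 80.8% G and C (median of all promoters 58%), and 42.6% of 35116 promoter windows of the same length in the RefSeq table hold this motif on either strand. The other motifs searched, on both strands, were TTTATG (a CDX site, in 9.64% of windows), GTTAAT (one arm of an HNF1 site, in 6.23%) and TATAAA (the TATA box, in 10.7%), and these letters do not occur in this window.

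MYO1A encodes myosin IA, the bridge between the core bundle and the side membrane of the microvillus. MYO1A (ENSG00000166866, chr12:57028517-57051198, minus strand) had 11, 9 and 12 reads in overexpression-labelled libraries, against 34, 36 and 44 reads in control-labelled libraries. That is 0.135 ± 0.020 FPKM in OE and 0.514 ± 0.068 FPKM in CT libraries (SD, n = 3 each), and no library of one group reached the other. Its mean was 3.82-fold lower, with an exact 95% counting interval of 2.56 to 5.84 (intervals and floors cover counting error only, and amplified reads are not independent molecules). With no minimum on FPKM, the log2 change was -0.42 with an SE of 0.056 (limma, adjusted p = 1.64e-03 over 33913 genes). In that fit 44.5% of genes passed. By voom on the reads of 23252 genes, 68.9% of which passed, the log2 change of MYO1A was -1.78 (95% interval -2.41 to -1.16, adjusted p = 3.85e-04). TAC3 overlaps MYO1A on the same strand and had 0 OE and 6 CT reads.

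Harmonin and myosin VIIB belong to the adhesion complex at the microvillus tips. USH1C (ENSG00000006611, chr11:17493895-17544416, minus strand), which encodes harmonin, measured 6.85, 6.15 and 5.97 FPKM in overexpression-labelled libraries, against 29.2, 31.6 and 23.6 FPKM in control-labelled libraries. Every overexpression-labelled value lay below every control-labelled one, at 6.32 ± 0.46 FPKM in OE and 28.1 ± 4.1 FPKM in CT libraries (SD, n = 3 each). The gene was 4.45-fold lower (limma, log2 change -1.98 with SE 0.11, adjusted p = 6.18e-06), a change matched in size by 10.4% of tested genes. MYO7B (ENSG00000169994, chr2:127535802-127637729, plus strand), the motor of the complex, had 34, 26 and 24 reads in overexpression-labelled libraries, against 19, 21 and 35 reads in control-labelled libraries. Its libraries overlapped, at 0.178 ± 0.036 FPKM in OE and 0.171 ± 0.058 FPKM in CT libraries (SD, n = 3 each). With no minimum its log2 fold change was 0.01 (95% interval -0.12 to 0.14, limma adjusted p = 0.883 over 33913 genes), and by voom on the reads of 23252 genes it was 0.20 (95% interval -0.48 to 0.87, adjusted p = 0.572), where the median of all genes was 0.21.

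The other 4 genes of that complex were low and mixed, and were named after their values were seen. CDHR2, a tip protocadherin, measured 1.43, 1.70 and 1.49 FPKM in overexpression-labelled libraries, against 0.149, 0.089 and 0.134 FPKM in control-labelled libraries, a 12.4-fold higher level with a 95% counting interval of 8.71 to 18.3. CDHR5, its binding partner across the gap, went the other way, at 0.337, 0.229 and 0.405 FPKM in OE and 1.08, 0.903 and 0.833 FPKM in CT libraries. ANKS4B, a scaffold that binds harmonin and myosin VIIB, had 49 OE and 0 CT reads and was at least 15.2-fold higher (floor of 3 reads over the group). CALML4, the light chain of myosin VIIB, had 82 OE and 78 CT reads. The 6 genes of the complex thus held 2 with higher and 2 with lower values without overlap (52.7% of genes with at least 1 read had groups that did not overlap), and USH1C was the one gene of the 6 with a mean above the minimum.

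ANPEP encodes aminopeptidase N, which trims amino acids from the free ends of peptides and is also known as CD13 on myeloid cells. It had the largest difference of the 10 genes. ANPEP (ENSG00000166825, chr15:89784889-89815401, minus strand) measured 0.163, 0.148 and 0.149 FPKM in overexpression-labelled libraries, against 27.2, 30.5 and 22.3 FPKM in control-labelled libraries. This is 14, 13 and 13 OE reads and 2158, 2507 and 1816 CT reads, which placed its mean above 2.60% of tested genes in OE and 87.1% in CT libraries. Its mean was 174-fold lower, with an exact 95% counting interval of 128 to 244 (limma, log2 change -4.57 with SE 0.11, adjusted p = 1.56e-07). By size, 0.988% of tested genes changed by as much. ANPEP met the minimum through the control-labelled group alone, so that it was bound to differ and these values are a description. The RefSeq table gives ANPEP 2 start sites, an upstream one known from myeloid cells and fibroblasts and a downstream one known from epithelial cells, and FPKM is given per gene, so it does not tell which start was in use. The 250 bases before each are shown because they differ in make-up (RefSeq, GRCh38.p14, minus strand, chr15:89814853-89815102 upstream and chr15:89806629-89806878 downstream).
ANPEP, upstream start: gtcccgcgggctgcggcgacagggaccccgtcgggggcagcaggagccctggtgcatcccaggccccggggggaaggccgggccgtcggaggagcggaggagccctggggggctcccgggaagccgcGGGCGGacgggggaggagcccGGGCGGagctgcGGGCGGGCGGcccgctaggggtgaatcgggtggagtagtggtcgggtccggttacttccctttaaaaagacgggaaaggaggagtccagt
ANPEP, downstream start: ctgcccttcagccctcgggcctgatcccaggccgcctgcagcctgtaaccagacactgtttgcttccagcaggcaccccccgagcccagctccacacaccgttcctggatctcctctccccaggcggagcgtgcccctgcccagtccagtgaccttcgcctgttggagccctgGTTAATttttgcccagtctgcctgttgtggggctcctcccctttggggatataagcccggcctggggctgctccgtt
Capitals mark 4 GC boxes before the upstream start, 2 of them overlapping, and GTTAAT before the downstream start, at bases -77 to -72. The windows were 74% and 64.4% G and C. None of the other letters searched occurred in either window.

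DPP4 encodes dipeptidyl peptidase 4, which clips dipeptides after proline or alanine and inactivates incretin hormones. DPP4 (ENSG00000197635, chr2:161992241-162074542, minus strand) had 18, 22 and 20 reads in overexpression-labelled libraries, against 5, 4 and 2 reads in control-labelled libraries. At 0.224 ± 0.020 FPKM in OE and 0.044 ± 0.019 FPKM in CT libraries (SD, n = 3 each), both groups were far below the minimum for testing, and they did not overlap. The level was 5.06-fold higher under the overexpression label, with an exact 95% counting interval of 2.64 to 10.7. With no minimum the log2 change was 0.23 with an SE of 0.032 (limma, adjusted p = 1.92e-03 over 33913 genes), and by voom on reads it was 2.38 (95% interval 1.46 to 3.30, adjusted p = 7.14e-04 over 23252 genes, 68.9% of which passed). The 2 peptidase genes thus differed in opposite directions, and the DPP4 difference rested on 60 OE and 11 CT reads.

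SI encodes sucrase-isomaltase, the enzyme that splits sucrose and the branch points of starch. SI (ENSG00000090402, chr3:164978898-165078495, minus strand) had 0 reads in all 6 libraries, which allows up to 0.0271 to 0.0277 FPKM in overexpression-labelled and 0.0290 to 0.0300 FPKM in control-labelled libraries (3 reads per library). The gene was not detectable at this depth in either group, and no fold can be given. Low values in this table include genes that nearly every cell uses, such as the small GTPase CDC42, listed at 28 OE and 52 CT reads. The sequence before the SI start is shown because it is a textbook target of gut homeobox factors and CDX2 itself differed between the groups (RefSeq, GRCh38.p14, minus strand, chr3:165078497-165078746).
SI: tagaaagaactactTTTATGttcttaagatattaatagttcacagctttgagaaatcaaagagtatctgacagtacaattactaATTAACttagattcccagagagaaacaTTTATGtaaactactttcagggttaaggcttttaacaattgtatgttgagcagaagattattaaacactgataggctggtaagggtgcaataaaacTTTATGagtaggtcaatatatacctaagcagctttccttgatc
Capitals mark TTTATG, which occurred 3 times, with the nearest at bases -43 to -38 before the start, and ATTAAC, the reverse complement of the HNF1 half-site, at -166 to -161. The window was 31.6% G and C, the lowest of the 11 windows found for 7 members. Promoter windows of USH1C, MYO1A, MYO7B and DPP4 were also in the table and held no TTTATG or GTTAAT on either strand. VIL1, ESPN and EPS8 were not matched.

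**Figure D2:**
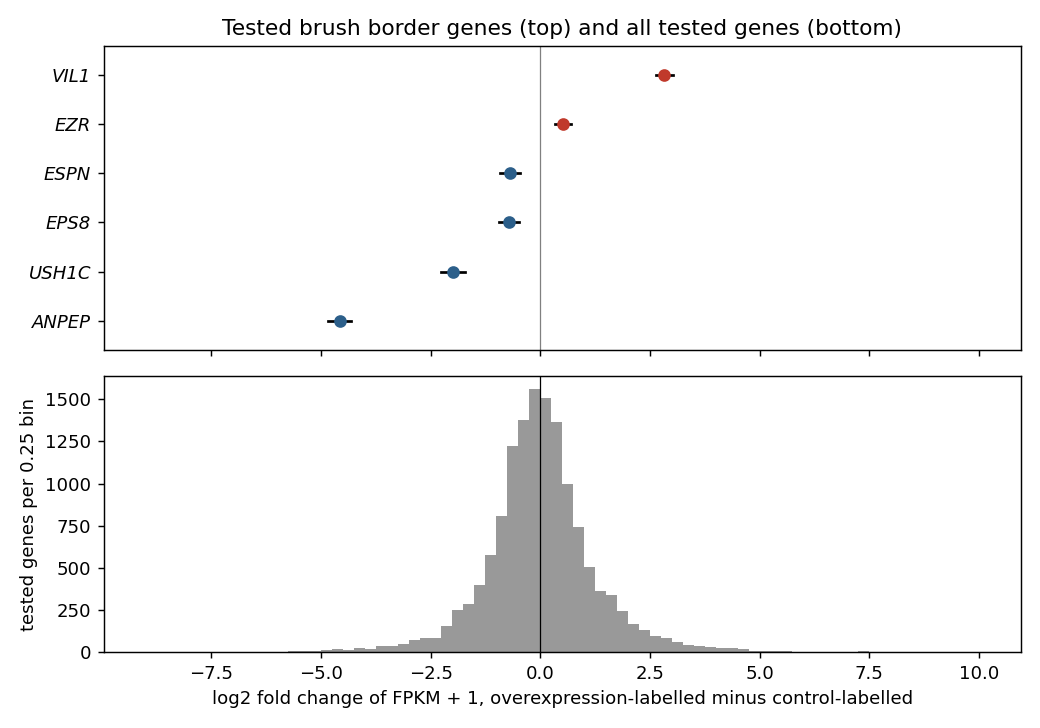
Log2 fold changes of FPKM + 1 (overexpression-labelled minus control-labelled) for the 6 tested brush border genes with 95% intervals (top) and a histogram of all 13972 tested genes in bins of 0.25 (bottom). ANPEP at -4.57 and VIL1 at 2.83 lie in the tails, whereas EZR at 0.51, ESPN at -0.68 and EPS8 at -0.72 lie in the bulk.

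The order of levels per length differed between the groups. In overexpression-labelled libraries it ran EZR (118 FPKM), VIL1 (8.88), ESPN (6.75), USH1C (6.32), EPS8 (4.26), DPP4 (0.224), MYO7B (0.178), ANPEP (0.153), MYO1A (0.135) and SI. There ESPN and USH1C overlapped between libraries, as did each neighbouring pair from DPP4 down to MYO1A. In control-labelled libraries it ran EZR (82.6 FPKM), USH1C (28.1), ANPEP (26.7), ESPN (11.5), EPS8 (7.66), MYO1A (0.514), VIL1 (0.388), MYO7B (0.171), DPP4 (0.044) and SI, with overlap between USH1C and ANPEP and between MYO1A and VIL1. Villin thus ranked 2 of 10 in OE and 7 in CT libraries, and aminopeptidase N ranked 8 in OE and 3 in CT libraries. Summed FPKM of the 10 genes was 144 to 146 in overexpression-labelled and 157 to 158 in control-labelled libraries, without overlap. The higher EZR and VIL1 levels and the lower USH1C and ANPEP levels offset each other in large part in this sum. It also depends on the FPKM denominator, which was 1.04 to 1.05 times the read sum in OE and 0.958 to 0.995 times in CT libraries. Control-labelled replicate 3 was the highest or lowest of its group for all 9 members that had reads, which it also was for 78.5% of tested genes.

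Each structural member was then set beside its relatives. The 3 ERM proteins, ezrin, radixin and moesin, share the membrane-linking role. RDX was 3.51-fold lower (11.3 ± 0.22 FPKM in OE and 39.7 ± 0.88 FPKM in CT libraries, limma adjusted p = 2.20e-07) and MSN 1.21-fold lower (79.8 ± 1.3 FPKM in OE and 96.3 ± 4.2 FPKM in CT libraries, limma adjusted p = 2.41e-03, SD and n = 3 each), while EZR was higher. Ezrin made up 56.1% to 56.6% of the FPKM of the 3 genes in overexpression-labelled libraries, against 36.3% to 39.8% in control-labelled libraries, and their sums overlapped (207 to 212 FPKM in OE, 206 to 230 FPKM in CT libraries). The direction of EZR and MSN held under each of 3 other scalings. In the EPS8 family, EPS8 was lower whereas its relatives were higher: EPS8L1 7.94-fold (8.99 ± 0.41 FPKM in OE, 1.13 ± 0.11 FPKM in CT), EPS8L2 2.71-fold (45.4 ± 0.23 FPKM in OE, 16.8 ± 0.33 FPKM in CT) and EPS8L3 2.20-fold (27.3 ± 1.4 FPKM in OE, 12.4 ± 1.2 FPKM in CT), with limma adjusted p-values of 4.06e-07, 4.45e-07 and 2.31e-05 in that order. EPS8 itself was 4.56% to 5.22% of the family's FPKM in overexpression-labelled and 18.8% to 22.8% in control-labelled libraries.

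Among other class I myosins, MYO1C and MYO1E were above MYO1A in all 6 libraries. MYO1D measured 58.9 ± 1.1 FPKM in overexpression-labelled and 0.122 ± 0.054 FPKM in control-labelled libraries, 483-fold higher with a 95% counting interval of 367 to 651 (limma adjusted p = 8.87e-09), and met the minimum through the overexpression-labelled group alone. MYO1E ran the opposite way, at 3.40 ± 0.11 FPKM in OE and 56.2 ± 5.2 FPKM in CT libraries (16.5-fold lower, limma adjusted p = 8.35e-08). MYO1C was 1.99-fold higher (76.3 ± 3.1 FPKM in OE and 38.3 ± 3.5 FPKM in CT libraries, SD, n = 3 each, limma adjusted p = 2.95e-05). MYO1F, MYO1G and MYO1H stayed below 0.5 FPKM in all 6.

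Among actin bundlers and villin relatives, PLS1, the plastin of the microvillus core, was higher, as VIL1 was. It measured 9.27 ± 0.43 FPKM in overexpression-labelled and 4.10 ± 0.73 FPKM in control-labelled libraries (2.26-fold, limma adjusted p = 1.41e-04). GSN, gelsolin, was 2.86-fold higher as well. Fascin and T-plastin, bundlers of filopodia and of many non-gut cells, were lower. FSCN1 measured 9.60 ± 0.21 FPKM in OE and 159.9 ± 5.2 FPKM in CT libraries (16.7-fold lower, limma adjusted p = 1.41e-08) and PLS3 22.4 ± 0.57 FPKM in OE and 105 ± 9.6 FPKM in CT libraries (4.68-fold lower). SVIL was 1.73-fold lower. The villin-like gene VILL had 306 OE and 11 CT reads, and LCP1, the leukocyte plastin, had 370 OE and 9 CT reads, both below the minimum for testing. AVIL, advillin, had 176 OE and 112 CT reads, with overlapping groups. Of the 6 tested genes of this list, VIL1 included, 3 were higher and 3 lower, where 37.5% of all tested genes were higher and 39.3% lower.

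**Figure D3:**
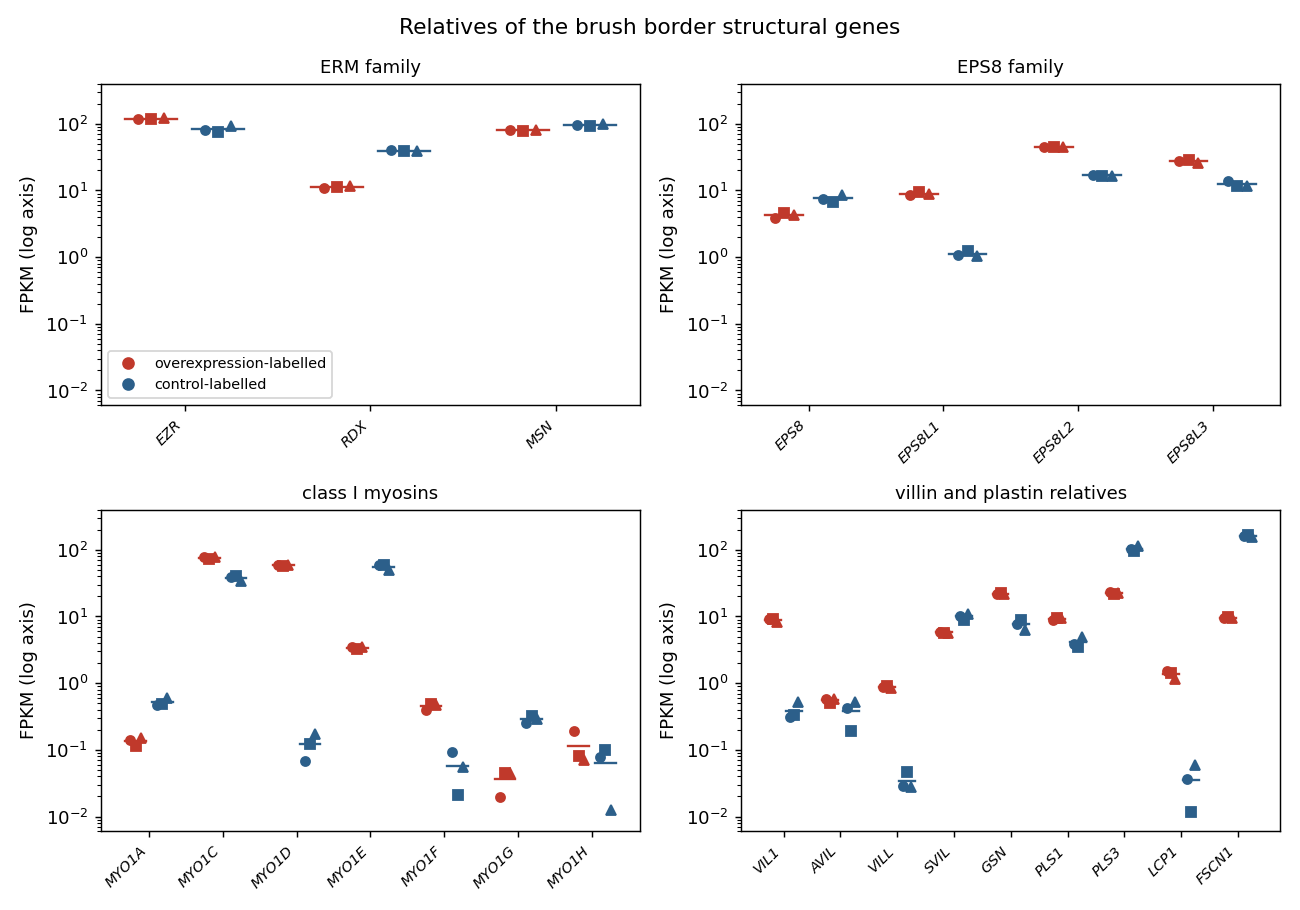
FPKM (log axis) of ERM and EPS8 family genes, of class I myosins and of villin and plastin relatives in each library, overexpression-labelled in red on the left of each pair and control-labelled in blue on the right, with a symbol for each replicate and a bar at the mean. EPS8 is the one member of its family that is lower under the overexpression label, and MYO1A lies below MYO1C and MYO1E in all 6 libraries.

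Of 15 other genes of the microvillus core and its membrane links, 14 were tested, and 5 were higher, 6 lower and 3 not past the threshold. By log2(FPKM + 1), the largest changes were those of SLC9A3R2 (3.09-fold lower), a scaffold that binds ezrin, EPS8L2 and EPS8L3 (above) and BAIAP2L2 (2.28-fold lower), which bends membrane around actin. Hydrolases followed no common direction. Of 12 other brush border peptidases, 4 were higher and 2 lower without overlap, where 52.7% of all genes with at least 1 read had groups that did not overlap. The 2 lower genes, GGT1 and CPM, were the ones tested, and both reached the minimum through the control-labelled group alone, so that they were bound to be lower. GGT1, gamma-glutamyltransferase, measured 0.460, 0.362 and 0.278 FPKM in overexpression-labelled libraries, against 24.7, 25.8 and 24.3 FPKM in control-labelled libraries (68.0-fold lower, limma adjusted p = 3.52e-08), although it has near-identical copies that may share its reads. CPM, carboxypeptidase M, measured 0.203, 0.118 and 0.104 FPKM in OE and 6.51, 8.49 and 4.24 FPKM in CT libraries (45.3-fold lower, 95% counting interval 34.86 to 60.02, limma adjusted p = 2.95e-05). ACE, which converts angiotensin and was named after its value was seen, had 677 OE and 6 CT reads, and MEP1A, a meprin, had 0 reads in all libraries. Of 5 carbohydrate and lipid hydrolases, TREH, which splits trehalose, was the one tested, and it reached the minimum through the overexpression-labelled group alone, at 2.05, 2.12 and 1.90 FPKM in OE and 0.019, 0.037 and 0.225 FPKM in CT libraries (limma adjusted p = 1.67e-05). TREH had 345 OE and 15 CT reads. LCT and MGAM, which like TREH and SI encode disaccharidases of the membrane, were at the limit of detection. LCT had 7 OE and 5 CT reads and MGAM 9 OE and 0 CT reads. Over the 36 brush border genes of these lists that are not among the 10, 17 were tested, with 6 higher and 8 lower and a median log2 fold change of -0.38, against 37.5% higher and 39.3% lower over all tested genes.

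**Figure D4:**
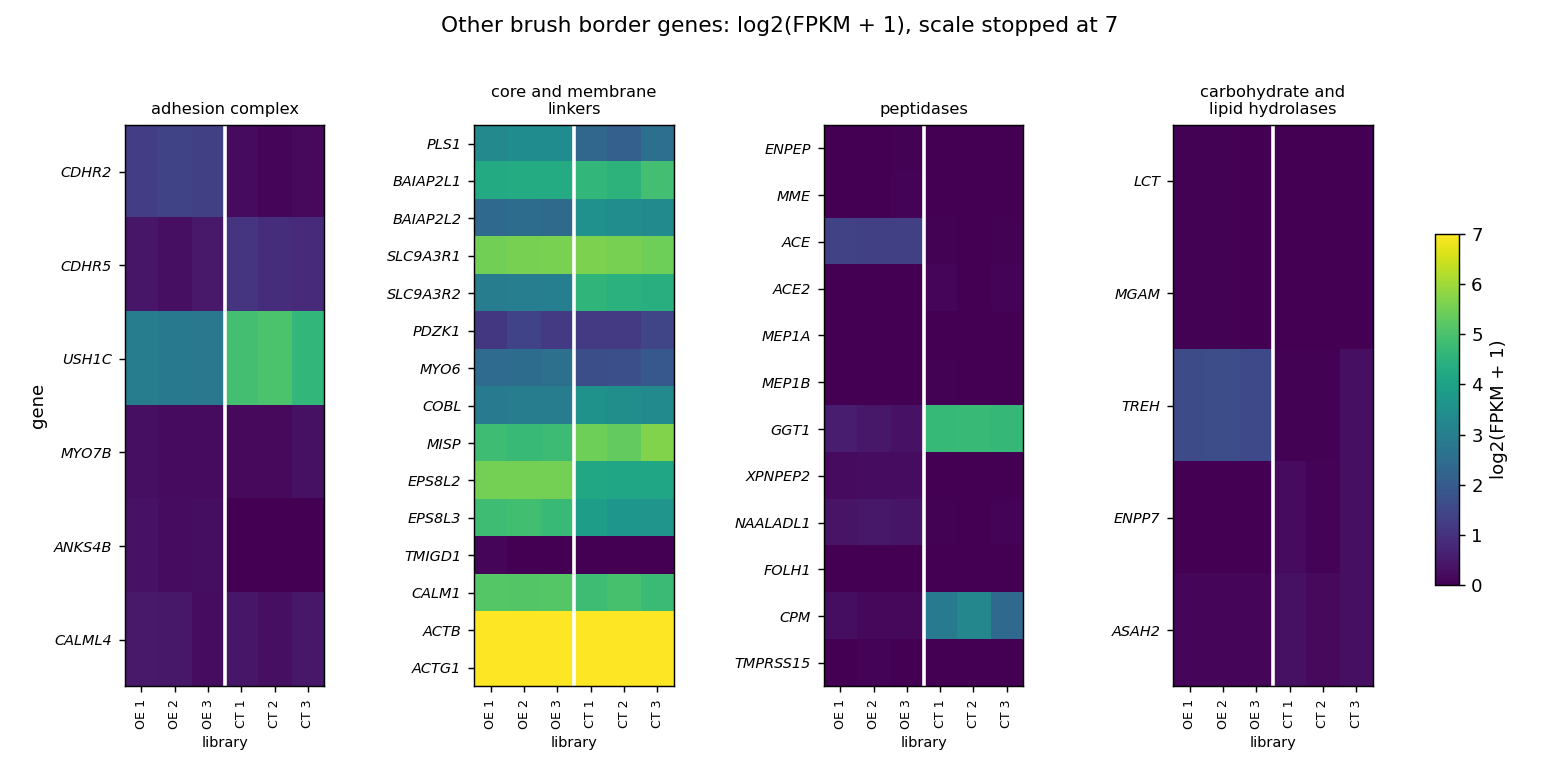
Level of the other brush border genes by list as log2(FPKM + 1), colour scale from 0 to 7 with ACTB and ACTG1 above it, in the 3 overexpression-labelled libraries (OE, left of the white line) and the 3 control-labelled libraries (CT, right). The adhesion complex list is drawn whole, with the members USH1C and MYO7B. Most peptidases and hydrolases are near 0 in both groups, and GGT1 and CPM stand out in control-labelled libraries. ACE and TREH are higher in overexpression-labelled libraries, at lower levels (means of 1.51 and 2.02 FPKM there).

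The genes most like 4 of the members over the 6 libraries were found from the mean absolute difference between log2(FPKM + 1) values centred on each gene's mean, among tested protein-coding genes. With 2 groups of 3 libraries, likeness mostly means a similar step between the groups. For VIL1 they were FAAH (0.036), MAP1B (0.046) and EFNB3 (0.047). FAAH measured 8.27, 8.70 and 8.29 FPKM in overexpression-labelled libraries, against 0.221, 0.278 and 0.474 FPKM in control-labelled libraries, and like VIL1 was highest among controls in replicate 3. For ANPEP they were GLP2R (0.046), FSTL1 (0.053) and CLMP (0.069), and for EZR they were PSMC4 (0.016), PHB (0.019) and NAB1 (0.019). DPP4, which varies little on this scale, was nearest to MPP6 (0.012), TIMM50 (0.016) and CLEC16A (0.017).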

How the data were processed

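RNA from 6 libraries labelled SW480 was sequenced with a SMARTER mRNA kit, per the labels' protocols. The authors deposited 1 table that holds, for each gene, its length in bases (unit other) and 6 columns of FPKM. The unit was read from the table's name and values. The submitters' processing notes list the build mm10, a mouse build, but all 58735 genes matched human GENCODE 29 (GRCh38) in identifier, start, end and symbol. For the aligner, the counter and strand use, names were not given in the sources used here. FPKM times gene length gave whole reads for 100% of values above 0 (within 0.001). The FPKM denominator was 1.04 to 1.05 times the read sum in overexpression-labelled and 0.958 to 0.995 times in control-labelled libraries.

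The test was limma 3.58.1 (R 4.3.3) with a trend on log2(FPKM + 1), group only, two-sided, over genes averaging 1 FPKM or more, Benjamini-Hochberg adjusted over all of these. Folds are ratios of mean FPKM. A group at 0 reads was set at a floor of 3 reads over the group. The steps were checked on simulated reads in which few genes differed, unlike in these data, so the check does not cover differences this wide. Alternatives changed the pseudocount (0.1), filter, scaling (TPM, read sum, quantile), test (voom), replicate block and each library left out. Voom on genes with at least 10 reads was chosen after seeing the data. The members and lists were chosen with earlier results of these data known. Named were the members, DDX39B, up to 4 genes past the threshold per list (2 by level where none passed), relatives, and the 3 most alike genes. Exceptions, such as CDC42, USP37, ANKS4B, CDHR2, CDHR5, CALML4, ACE, MEP1A, LCT, MGAM, CDX1, the marker genes named by reads, the overlapping genes and the transporters, were named after their values were seen. A gene of these lists is not reported here.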

Additional observations from a re-analysis of the deposited data

How the results depend on the processing

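The 6 tested members kept their direction and call in all 89 pairs of a member and an alternative setting. VIL1 had 14 such settings and each other tested member 15. Over these, the log2 fold change of EZR ran from 0.44 to 0.63, of ESPN from -0.78 to -0.58, of EPS8 from -0.83 to -0.63, of USH1C from -2.13 to -1.89, of VIL1 from 2.73 to 4.64 and of ANPEP from -7.27 to -4.47. The filter set how many genes were counted. At a mean of at least 5 FPKM, 6218 of 7796 tested genes passed (2784 higher, 3434 lower). There 1 member was higher and 4 were lower, as VIL1 fell under that minimum. With no filter 8155 genes were higher and 6950 lower (44.5% of 33913), the members were 3 higher and 5 lower (DPP4 and MYO1A joined), and other brush border genes were 11 higher and 11 lower. Leaving out 1 library gave 9909 to 11099 genes, always 2 members higher and 4 lower. VIL1 and ANPEP met the minimum of 1 FPKM through a single group each, so their calls were bound to hold in refits that kept it. Numbers did not pair the libraries (correlations of -0.00592, -0.0217 and 0.00746 between same-numbered ones, and not every library was closest to its own number), and the replicate block gave 10506 genes and the same member counts. DPP9 and SLC35A1 lost their calls under the block (adjusted p = 0.0856 and 0.0532). Values of MYO1A, DPP4 and MYO7B rest on 11 to 114 reads per group, and the log2 values of MYO1A and DPP4 moved with the pseudocount (MYO1A -1.39 and DPP4 1.17 at 0.1).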

Other observations

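Transporters of the brush border were mostly below 1 FPKM, and several were present in a single group. SLC5A1, the sodium-glucose cotransporter, had 188 reads in overexpression-labelled libraries and 0 in control-labelled ones, and SLC15A1, the peptide transporter, had 97 in overexpression-labelled (OE) and 0 in control-labelled (CT) libraries, which made SLC5A1 at least 58.4-fold higher and SLC15A1 at least 30.2-fold higher (floor of 3 reads over the group). SLC2A5, the fructose transporter, had 4 OE and 189 CT reads, and SLC6A19, a neutral amino acid transporter, had 0 OE and 51 CT reads. Of 13 transporter genes 3 were tested, and SLC11A2, which takes up iron, was the one called, 1.41-fold lower (6.46 ± 0.15 FPKM in OE and 9.07 ± 0.31 FPKM in CT libraries, SD, n = 3 each, limma adjusted p = 2.99e-04). Over all tested genes, 76.8% were called in either direction. The sugar, peptide and amino acid carriers were named after their values were seen.

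Of 10 genes for apical membrane traffic, 8 were tested, with 2 higher, 1 lower and 5 not past the threshold. Of all tested genes, 37.5% were higher and 39.3% lower. MYO5B, the motor whose loss causes microvillus inclusion disease, was 2.36-fold higher (3.38 ± 0.15 FPKM in OE and 1.43 ± 0.33 FPKM in CT libraries, limma adjusted p = 3.20e-04). SLC35A1 was 1.48-fold higher (adjusted p = 0.0208 by limma), a call lost under the replicate block and without overexpression-labelled replicate 1 or 2 (adjusted p = 0.0599 and 0.0752), and VIPAS39 1.29-fold lower (adjusted p = 7.30e-03 by limma).

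The intracellular relatives DPP7, DPP8, DPP9 and PREP, which also cut at proline, were above DPP4 in all 6 libraries. DPP7 measured 44.3 ± 1.4 FPKM in overexpression-labelled and 74.4 ± 12 FPKM in control-labelled libraries (1.68-fold lower, limma adjusted p = 7.46e-04). DPP8 was 1.36-fold higher (limma adjusted p = 1.29e-03). DPP9 was 1.18-fold higher (limma adjusted p = 0.0359), with adjusted p up to 0.122 over the alternatives and no call without overexpression-labelled replicate 1 or 3 or control-labelled replicate 1 or 3. PREP measured 12.7 ± 0.27 FPKM in OE and 11.6 ± 1.1 FPKM in CT libraries and was not past the threshold (limma adjusted p = 0.195), but passed when FPKM was recomputed on the read sum (adjusted p = 0.0482), after quantile normalization (0.0472) and by voom (0.0404). FAP had 0 OE and 11 CT reads, DPP6 had 3 OE and 4 CT reads, and DPP10 had 0 in all 6 libraries.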
